A study of Mus musculus with 2 samples.

Results

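The guanylate-binding proteins are large GTPases of the interferon response, and 9 of their mouse genes, Gbp2, Gbp3, Gbp4, Gbp5, Gbp6, Gbp7, Gbp8, Gbp9 and Gbp10, were followed here in the nuclear RNA of macrophages. The genes were taken by symbol from the transcript tables and joined by gene identifier to the gene tables, and all 9 were found among 55536 named genes. There was 1 group of 2 libraries, labelled biological replicates 1 and 2. Both held ribosomal-RNA-depleted total RNA of the nucleoplasmic fraction of bone-marrow-derived macrophages from C57BL/6J mice. The cells had met Lipid A, the ligand in bacterial lipopolysaccharide for Toll-like receptor 4, at 100 ng/ml for 12 h, were kept without it for 12 h, and were restimulated with 100 ng/ml for 40 min. Age and sex of the animals were not collected, per the labels. Both libraries carry the same donor entry, so the spread between them may be technical, and library 1 was made from 1 µg and library 2 from 500 ng of RNA, which cannot be told apart from the replicate number. No untreated group belongs to the series, so every value below is a level in restimulated cells or a difference between libraries, and no test between conditions was possible.

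Interferon receptors signal through JAK kinases to transcription factors, IRF factors among them, and these bind short promoter elements of genes that include the Gbp family. The proteins hydrolyse GTP, assemble on vacuoles and on the surface of intracellular bacteria, and are known in macrophages for exposing microbial products to the caspases of the inflammasome. In the mouse the genes stand in 2 clusters on different chromosomes. Macrophages produce type I interferon after contact with Lipid A, so these genes are commonly measured in such cells.

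The named genes had 19797829 expected counts in library 1 and 17213606 in library 2, and mitochondrial genes took 2.63% and 6.60% of them. All 7 macrophage markers were detected, at 59.9 to 1311 TPM. TPM is the authors' level, scaled by transcript length and to a fixed library total. Of 23 markers of T, B, NK, dendritic and endothelial cells, neutrophils and fibroblasts, 3 were detected, 2 of dendritic and 1 of endothelial cells. The highest mean was 0.315 TPM among the dendritic cell markers (Siglech) and 1.54 TPM among the endothelial ones (Pecam1). The summed level of all 23 was 4.36 TPM in library 1 and 2.14 in library 2. Among them, Cd3e, Cd3g, Pax5, Klrb1c, Ly6g, Elane, Camp and Pdgfra had a mean TPM of 0.

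On mm10, Gbp5, Gbp7, Gbp3 and Gbp2 lie in this order on the plus strand at chr3:142493978-142638008, a span of 144 kb. By gene identifier and position these are Gbp5 (ENSMUSG00000105504.4) at chr3:142493978-142522344, Gbp7 (ENSMUSG00000040253.15) at chr3:142530342-142550149, Gbp3 (ENSMUSG00000028268.14) at chr3:142560026-142573209 and Gbp2 (ENSMUSG00000028270.12) at chr3:142620602-142638008. Gbp8, Gbp9, Gbp4, Gbp10 and Gbp6 lie on the minus strand at chr5:105014150-105293698, a span of 280 kb. These are Gbp8 (ENSMUSG00000034438.16) at chr5:105014150-105139540, Gbp9 (ENSMUSG00000029298.15) at chr5:105077630-105139539, Gbp4 (ENSMUSG00000079363.7) at chr5:105115767-105139586, Gbp10 (ENSMUSG00000105096.1) at chr5:105215699-105239533 and Gbp6 (ENSMUSG00000104713.4) at chr5:105270702-105293698. The coding sequences of the chromosome 5 genes are close copies of each other, and those of the chromosome 3 genes are not. Identity over aligned coding bases was 89.7% to 98.4% for the 10 pairs on chromosome 5, with a median of 90.8%. It was 64.6% to 78.5% for the 6 pairs on chromosome 3, with a median of 65.4%, and 63.0% to 75.9% for the 20 pairs across the chromosomes, with a median of 68.8%. Gbp3 and Gbp7 were the most alike on chromosome 3, at 78.5%, and both were closer to every chromosome 5 gene (72.5% to 75.9%) than to Gbp2 or Gbp5 (64.6% to 65.9%). Gbp6 and Gbp10 were the closest pair, with 30 differing bases in 1836 coding bases. Their first 130 coding bases were identical, and the 90-base stretch with the most differences, bases 1558 to 1647 of the coding sequence, is shown because it is where the coding sequences of Gbp6 and Gbp10 differ most. Capitals mark the 12 differing bases.
Gbp6: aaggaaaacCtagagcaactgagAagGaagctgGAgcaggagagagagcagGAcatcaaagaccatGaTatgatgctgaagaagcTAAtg
Gbp10: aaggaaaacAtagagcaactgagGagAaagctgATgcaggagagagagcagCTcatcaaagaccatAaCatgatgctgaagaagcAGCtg

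The coding ends separate another pair. A cysteine codon in the 4th place before the stop codon is where a CaaX box, the signal for attaching a membrane lipid, begins, and mouse GBP2 and GBP5 are known to be prenylated there. The last 30 coding bases of Gbp2 and Gbp5 are shown with that codon in capitals, beside those of Gbp6, which has none.
Gbp2: aaatcgtctgggaagTGCactatactctga
Gbp5: agacatcatcatgacTGTgttataagctaa
Gbp6: taccttgtccgttatctaaagcatttatga
The codon was present at this place in Gbp2 and Gbp5 and in none of the other 7 members, against 649 of 21523 genes with a complete coding sequence (3.02%). Both members that carry it belong to the chromosome 3 cluster. They were the first and the second highest of its members by TPM in the nuclear RNA. The coding end of Gbp2b, a further family gene there at 0.84 and 0.71 TPM in libraries 1 and 2, was not examined.

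The RefSeq promoter table (GRCm38.p6) matched the 4 chromosome 3 members. The 250 bases before the annotated start are shown on the plus strand for the windows that hold an interferon-stimulated response element (ISRE), an element bound by IRF factors. Capitals mark matches to GAAANNGAAA or its reverse complement TTTCNNTTTC.
Gbp5, chr3:142496684-142496933: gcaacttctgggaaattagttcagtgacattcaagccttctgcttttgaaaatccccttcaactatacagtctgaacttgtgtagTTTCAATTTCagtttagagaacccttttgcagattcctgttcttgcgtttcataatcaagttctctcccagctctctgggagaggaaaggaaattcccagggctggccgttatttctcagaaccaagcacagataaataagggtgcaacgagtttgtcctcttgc
Gbp7, chr3:142530086-142530335: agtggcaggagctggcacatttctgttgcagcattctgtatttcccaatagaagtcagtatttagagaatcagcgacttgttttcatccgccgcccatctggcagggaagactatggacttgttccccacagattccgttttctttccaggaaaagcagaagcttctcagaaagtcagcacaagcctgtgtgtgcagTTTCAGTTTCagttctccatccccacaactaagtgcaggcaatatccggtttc
Gbp3, chr3:142559794-142560043: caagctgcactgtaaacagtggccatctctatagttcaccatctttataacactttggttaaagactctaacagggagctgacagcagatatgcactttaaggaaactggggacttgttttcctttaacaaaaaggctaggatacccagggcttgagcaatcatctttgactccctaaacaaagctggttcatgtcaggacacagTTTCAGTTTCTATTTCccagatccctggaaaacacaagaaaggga
Gbp2, chr3:142620413-142620662: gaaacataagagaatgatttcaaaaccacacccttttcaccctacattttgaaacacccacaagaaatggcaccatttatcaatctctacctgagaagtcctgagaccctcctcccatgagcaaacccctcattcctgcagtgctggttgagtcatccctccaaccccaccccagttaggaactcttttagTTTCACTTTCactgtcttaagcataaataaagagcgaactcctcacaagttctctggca
All 4 genes had a match in at least 1 window, and the matches stood on the minus strand. Over the whole table, 978 of 32851 windows held the ISRE letters (2.98%), and 936 of 27025 genes had a match in at least 1 window (3.46%). The match ended 30 to 50 bases before the start for Gbp3, Gbp7 and Gbp2 and 156 bases before it for Gbp5, and the Gbp3 window held 2 overlapping matches. GENCODE M21 starts the transcript Gbp2-201 upstream of the RefSeq start, so that the Gbp2 match lies in the first exon of that transcript. A match is a stretch of letters and not a measured binding site.

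The whole family was present at high level in the nuclear RNA. All 9 members were detected, with 10 or more expected counts in both libraries, against 49.9% of the 22028 protein-coding genes. By mean TPM, 8 of 9 members stood in the top 10% of the detected protein-coding genes, which holds 4.99% of all protein-coding genes and began at 42.6 TPM. In bulk RNA, fewer cells that use a gene and less of its RNA per cell cannot be told apart. The median member stood at 87.7 TPM, against a median of 6.38 TPM for detected protein-coding genes. Together the members made up 0.405% of all counts in library 1, with a Wilson 95% interval of 0.402% to 0.408%, and 0.370% in library 2, with one of 0.368% to 0.373%. The intervals cover counting error only.

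On chromosome 3, Gbp5, which is linked to NLRP3 inflammasome activity in mouse macrophages, was the highest member, at 342.88 TPM in library 1 and 250.85 in library 2. Its mean of 297 ± 65.1 TPM (SD, n = 2 libraries, as for every ± on a TPM value; TPM is not centred between the libraries here) lay at percentile 98.98 of the detected protein-coding genes. Gbp2, which is recruited to Toxoplasma vacuoles and to cytosolic Francisella, followed at 176.12 and 131.51 TPM (mean 154 ± 31.5). Both libraries put Gbp5 above Gbp6 and Gbp6 above Gbp2, with no overlap between the values of neighbouring places.

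Gbp3, known in the mouse to gather on Toxoplasma vacuoles, had 99.14 TPM in library 1 and 62.31 in library 2 (mean 80.7 ± 26.0). Gbp7, linked in mouse macrophages to assembly of the phagosomal NADPH oxidase, was the lowest of the cluster at 49.84 and 39.90 TPM (mean 44.9 ± 7.03). The library 2 value of Gbp7 lay under the 42.6 TPM bound of the top 10%, which was set on the mean of both libraries. With library 2 alone, 8 members still stood in the top 10% of that library. An annotated processed pseudogene, Gm43802, lies inside Gbp7 on the same strand and shares 10.8% of its 31-base words. It took 201 counts in library 1 and 34.6 in library 2, beside 4567.74 and 4353.45 for Gbp7.

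On chromosome 5, Gbp6, another protein of Toxoplasma vacuoles, was the second highest member of the family at 248.25 TPM in library 1 and 176.80 in library 2 (mean 213 ± 50.5). Gbp4 had 118.90 and 80.70 TPM (mean 99.8 ± 27.0). Gbp8 had 108.99 and 66.46 TPM (mean 87.7 ± 30.1), and Gbp9, also found on Toxoplasma vacuoles, had 93.97 and 72.55 TPM (mean 83.3 ± 15.1). The library values of Gbp4, Gbp8, Gbp9 and Gbp3 overlapped from each place to the next, and Gbp8, Gbp9 and Gbp3 changed order between the libraries.

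Gbp10 stood apart from all of them, at 3.02 TPM in library 1 and 20.37 in library 2 (mean 11.7 ± 12.3), around percentile 65.56 of the detected protein-coding genes. It was the lowest member in both libraries. By RSEM TPM, not centred between the libraries, it was the only member higher in library 2. Its counts were 215.17 and 368.05.

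**Figure D1:**
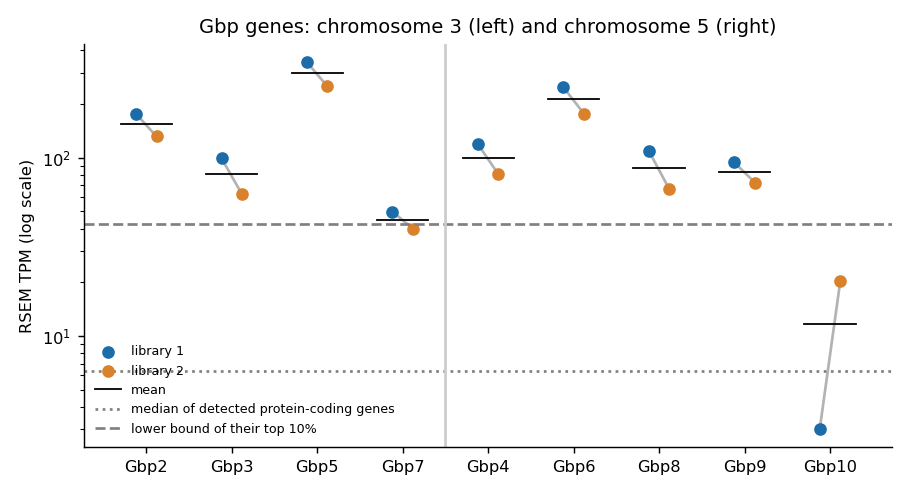
RSEM TPM of each Gbp gene on a log axis, library 1 (blue) left of library 2 (orange), with the mean as a bar; the dashed and dotted lines are the lower bound of the top 10% (42.6 TPM) and the median (6.38 TPM) of detected protein-coding genes. Of the 9 genes, 8 have means above the dashed line, and Gbp10 has 3.02 TPM in library 1 and 20.37 in library 2.

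The 2 clusters were at like levels. Summed over their members, the 4 chromosome 3 genes had 668 TPM and the 5 chromosome 5 genes had 573 in library 1. In library 2 the sums were 485 TPM for chromosome 3 and 417 for chromosome 5. The chromosome 3 share of the family was 53.8% ± 0.0471, with the same rounded value in both libraries. The members' mean levels overlapped widely, at 44.9 to 297 TPM on chromosome 3 and 11.7 to 213 TPM on chromosome 5. The median over members of the mean log2(TPM + 1) was 6.79 on chromosome 3 and 6.43 on chromosome 5, a difference of 0.36; it was 0.28 in library 1 alone and 0.32 in library 2 alone. The difference is on the log2(TPM + 1) scale and comes from 4 and 5 genes, so no test was made. Its sign depended on the unit: by CPM, the counts scaled to the library total, which do not correct for transcript length, it was -0.18. With the 2 further family genes Gbp2b and Gbp11 included, it was -0.092.

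Levels varied among the further Gbp genes of the annotation. Gbp2b, on chromosome 3, had 0.84 and 0.71 TPM from 47 and 42 counts in libraries 1 and 2. Gbp11, a polymorphic pseudogene on chromosome 5, had 22.59 and 17.40 TPM, a mean above that of Gbp10, and Gbp2-ps, an unprocessed pseudogene on chromosome 3, had 0 counts in both. Gbp2b lies between Gbp3 and Gbp2, both of which exceeded 60 TPM in each library.

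**Figure D2:**
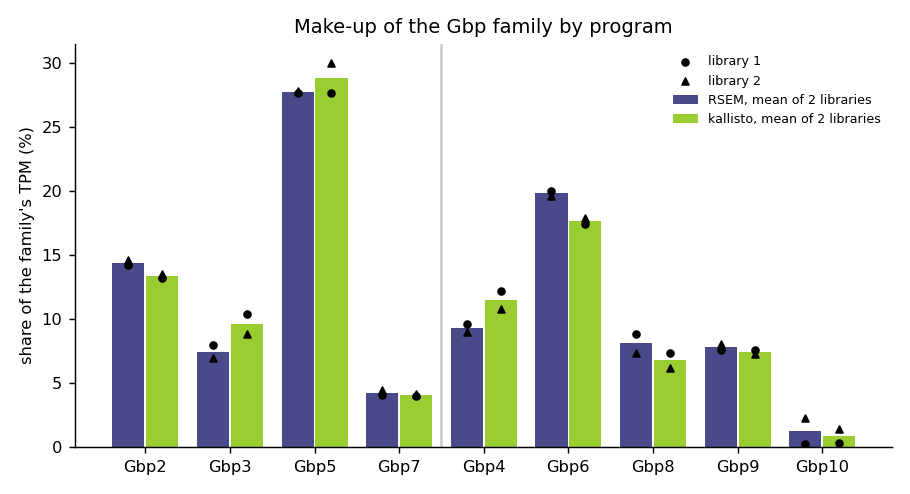
Share of each gene in the summed TPM of the 9 Gbp genes, by RSEM (violet) and by kallisto (green), as the mean of both libraries with library 1 (circle) and library 2 (triangle) shown. Gbp5 leads with 27.7% by RSEM and 28.8% by kallisto, and Gbp6 follows with 19.8% and 17.7%.

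The second program, kallisto, gave much the same composition. Gbp5 held 27.7% of the family's TPM by RSEM and 28.8% by kallisto, Gbp6 held 19.8% and 17.7%, and Gbp2 held 14.4% and 13.4%. The shares that differed most in proportion were those of Gbp3 (7.45% and 9.60%), Gbp4 (9.27% and 11.5%), Gbp8 (8.08% and 6.76%) and Gbp10 (1.25% and 0.846%). Gbp9 had 7.81% and 7.40%, and Gbp7 had 4.22% and 4.09%. The chromosome 3 share was 55.9% by kallisto. Shares are compared here because the TPM of the 2 programs differed in scale. Gbp5 had 342.88 TPM in library 1 and 250.85 in library 2 by RSEM, and 93.8 and 178 by kallisto. The cause of this difference was not tested.

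The amount of sequence that a member shares with other genes bounds how surely its reads could be placed. Of the 31-base words in its annotated transcripts, Gbp10 shared 89.8% with at least 1 other gene and Gbp6 shared 74.3%. The other chromosome 5 members shared 31.1% (Gbp8), 18.3% (Gbp9) and 14.9% (Gbp4). On chromosome 3 the values were 14.7% for Gbp7, 5.64% for Gbp3, 4.85% for Gbp2 and 3.10% for Gbp5. With words of 75 bases, Gbp10 still shared 77.8% and Gbp6 67.3%, and the other 7 members shared 0.578% to 11.3%. The levels of Gbp6 and Gbp10 are therefore less certain than those of the other members, as is that of Gm43302, a protein-coding gene annotated across both, which shared 100% of its 31-base words. Gbp8, Gbp9 and Gbp4 overlap each other on the minus strand, and the sources used here do not say whether counting used the strand.

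**Figure D3:**
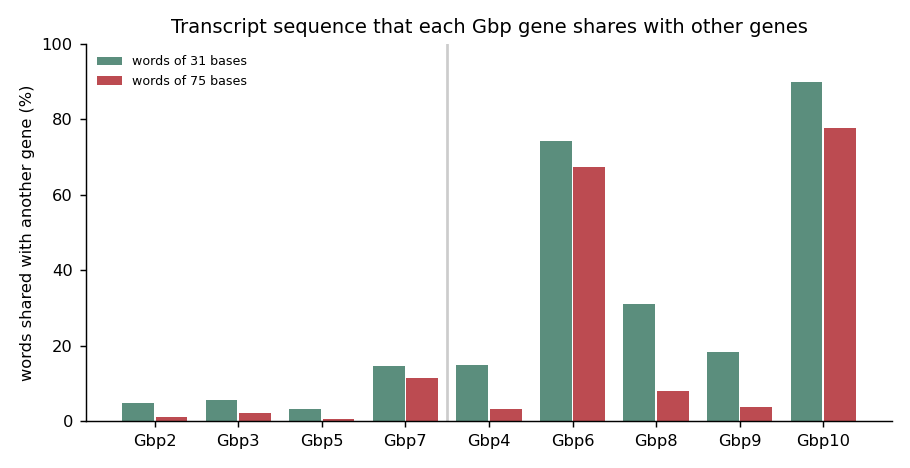
Percent of the words of 31 bases (green) and 75 bases (red) in each gene's annotated transcripts that also occur in a transcript of another gene. Gbp6 and Gbp10 reach 74.3% and 89.8% with 31 bases, and 67.3% and 77.8% with 75 bases.

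Reads of Gbp6, Gbp10 and Gm43302 summed to 18411 counts in library 1 and 16055 in library 2. RSEM gave Gbp6 98.6% of them in library 1 and 93.1% in library 2, Gbp10 1.17% and 2.29%, and Gm43302 0.254% and 4.59%. By kallisto, Gbp6 had 98.1% and 95.1%, Gbp10 1.83% and 2.85%, and Gm43302 0.0822% and 2.06%. Gbp6 thus held over 90% of the counts of these 3 genes in each library by each program, and the shares of both Gbp10 and Gm43302 were larger in library 2 than in library 1. Whether this division reflects the RNA or the assignment of shared reads was not tested.

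After centring on the detected protein-coding genes, 8 of 9 members were higher in library 1, against 50% of those genes, and their median log2 ratio of library 1 over library 2 was 0.17. None was over 2-fold higher in library 1, against 0.864% of detected protein-coding genes, and 1 was over 2-fold higher in library 2, against 0.737%. Each ratio has 1 library on either side, so there is no replicate check. Leaving Gbp10 aside, the ratios ran from 0.04 for Gbp7 to 0.43 for Gbp8, within the range from the 5th to the 95th percentile of detected protein-coding genes (-0.61 to 0.66). By kallisto the median turned to -0.22, with 2 of the 9, Gbp3 (0.03) and Gbp8 (0.05), above 0. By CPM Gbp7 (-0.20) and Gbp9 (-0.16) fell below 0. A shared direction of the 8 members therefore depended on the program and the unit.

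Gbp10 kept its direction under all 3 measures, with centred log2 ratios of -2.68 by RSEM TPM, -1.51 by kallisto TPM and -1.05 by CPM. The size of its difference moved with 1 short transcript, which enters all 3 measures. By RSEM, Gbp10 had more counts in library 2 only with that transcript included. Gbp10-202, a retained-intron transcript of 703 bases, took 0 counts in library 1 and 197.32 in library 2, while the coding transcript Gbp10-201, of 3528 bases, took 215.17 and 170.73. The mean transcript length that enters the gene's TPM was accordingly 3528 bases in library 1 and 1020 bases in library 2. Of the 31-base words of Gbp10-202, 91.1% also occur in Gbp6. The TPM of Gbp10-201 alone was 3.02 in library 1 and 2.28 in library 2, and its kallisto TPM was 1.12 and 2.73. These values are not centred, and no centred ratio was computed for Gbp10-201 alone. It was higher in library 1 by RSEM and in library 2 by kallisto. Before centring, the median log2 ratio of detected protein-coding genes had the same direction in each program, at 0.27 by RSEM and -0.59 by kallisto. The deposited credibility interval of the gene's TPM was 2.45 to 4.92 in library 1 and 14.4 to 24.5 in library 2, and its level was not stated.

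**Figure D4:**
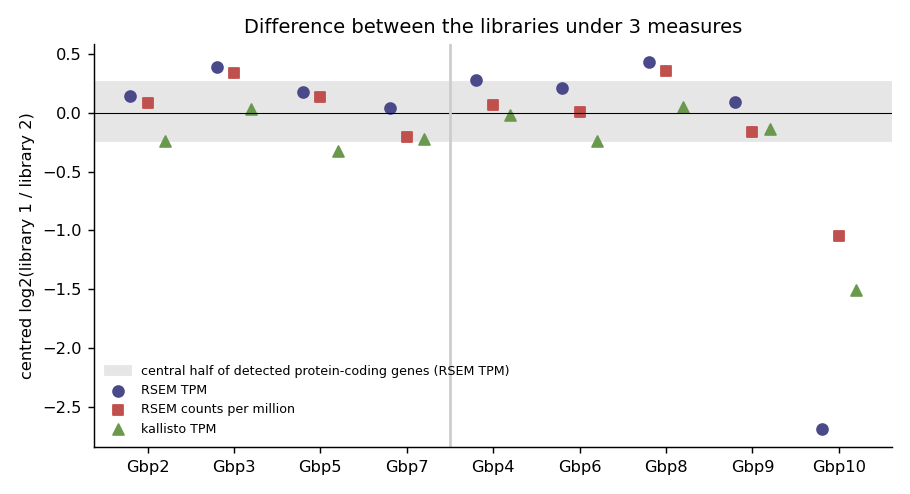
Centred log2 ratio of library 1 over library 2 for each Gbp gene by RSEM TPM (circle), RSEM CPM (square) and kallisto TPM (triangle); the grey band is the middle 50% of detected protein-coding genes by RSEM TPM. Gbp10 lies at -2.68, -1.05 and -1.51, and the other 8 genes lie within 0.5 of 0 under each measure.

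Much of the TPM of several members was assigned to transcripts that the annotation does not call protein coding. In 4 of the 8 members that have such transcripts, Gbp4, Gbp5, Gbp6 and Gbp8, these held 50% or more of the gene's TPM in both libraries, against 17.8% of the detected protein-coding genes with such a transcript. They comprise 1 of the 4 chromosome 3 genes, of which Gbp7 could not be called, and 3 of the 5 chromosome 5 genes. Kallisto gave the same 4 genes. Gbp7 has no transcript of these classes in the annotation, so its value of 0 says nothing of its RNA.

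Gbp5 had 60.1% of its TPM outside coding transcripts in library 1 and 55.9% in library 2. The retained-intron transcript Gbp5-205 held 31.1% and 39.7%, and the nonsense-mediated-decay transcript Gbp5-202, of a class degraded when a stop codon is met early, held 28.1% and 14.8%. The coding transcript Gbp5-201 stayed the largest single one by RSEM, at 39.9% and 44.1%. The annotated start of Gbp5-205 lies 5862 bases downstream of the RefSeq start of the gene.

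For Gbp4 the outside share was 67.1% in library 1 and 72.8% in library 2, and the nonsense-mediated-decay transcript Gbp4-202 led with 51.0% and 60.1%. Gbp6 had 63.2% and 85.1%: its coding transcript Gbp6-201 held 36.8% and 14.9%, and the nonsense-mediated-decay transcript Gbp6-203 held 33.2% and 55.8%. For Gbp6 the first-placed transcript therefore differed between the libraries, and it did so by kallisto as well (coding share 39.5% and 17.0%). Gbp8 had 60.9% and 58.3%, mostly in the processed transcript Gbp8-204 (55.8% and 52.4%). Gbp9 had 37.6% and 41.6%, nearly all in the retained-intron transcript Gbp9-203, and its coding transcript Gbp9-202 took 1435.12 counts in library 1 and 0 in library 2.

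Gbp2 and Gbp3 were at the other end, with 0% and 0.137% of TPM outside coding transcripts for Gbp2 and 1.51% and 0.706% for Gbp3 in libraries 1 and 2. Kallisto gave 0.220% and 0.575% for Gbp2 and 5.32% and 6.67% for Gbp3. The annotation gives each gene 1 transcript outside the coding class, a nonsense-mediated-decay one for Gbp2 and a processed one for Gbp3. Neither gene has an annotated retained-intron transcript, so these low shares say little of unspliced RNA. Within Gbp3 the transcripts differed in their start. Gbp3-202, whose annotated start lies 55 bases downstream of the second of 2 RefSeq starts, held 88.8% of TPM in library 1 and 68.0% in library 2. Gbp3-203, which begins 8 bases downstream of the first RefSeq start, held 8.67% and 29.6%. The ISRE letters shown for Gbp3 stand before the first start. The 250-base window before the second start began at chr3:142560106, downstream of these letters, and held no further match. Its lack of a match therefore depends on the window length. By kallisto Gbp3-202 led too, with 58.0% and 52.7%, but its second transcript was Gbp3-205, a short coding one, with 24.95% and 21.51%, against 0% and 0.931% by RSEM. Gbp3-203 had 5.69% and 16.2% by kallisto, so the 2 programs differed on which transcript follows Gbp3-202.

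**Figure D5:**
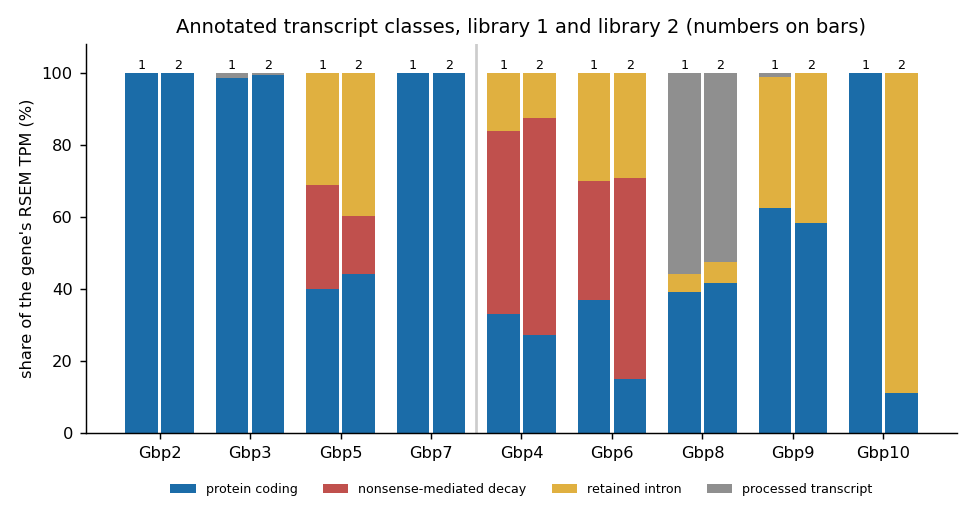
Share of each Gbp gene's RSEM TPM in transcripts annotated as protein coding, nonsense-mediated decay, retained intron or processed transcript, library 1 left of library 2. Gbp4, Gbp5, Gbp6 and Gbp8 hold 50% or more outside protein-coding transcripts in both libraries, and Gbp10 does so in library 2 only, at 88.8%.

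RNA of the nucleus includes transcripts that are not yet fully spliced, and reads of an intron can be assigned to a transcript annotated as retaining it. The part of such reads in the transcript shares above was not tested. The transcript with the most TPM was the same in both libraries for 6 of 9 members by RSEM, and in both libraries and both programs for Gbp2, Gbp3, Gbp4 and Gbp7.

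Genes that act upstream of the family were also present. Of 15 interferons, receptors, kinases and factors, all were detected (background 49.9%) and 9 stood in the top 10% (background 4.99%), with a median of 54.7 TPM against 87.7 TPM for the Gbp members. Irf1, an inducer of Gbp genes in the mouse, was the highest at 618.27 TPM in library 1 and 299.99 in library 2. Ifnb1, which encodes interferon beta, was the lowest at 11.03 and 5.60 TPM, from 129 and 67 counts. The list's median centred log2 ratio of library 1 over library 2 was 0.54 by RSEM TPM, and that of the Gbp members was 0.17. Of the 15 genes, 13 were above 0, against 50% of detected protein-coding genes. No kallisto ratio was computed for this list, and by kallisto the Gbp median turned to -0.22.

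Of 18 genes whose products work with or beside the Gbp proteins (immunity-related GTPases, autophagy conjugation factors and inflammasome components), all were detected (background 49.9%). In the top 10% stood 8 of them (background 4.99%), and their median was 39.8 TPM. Nlrp3, the inflammasome sensor, was the highest at 260.79 TPM in library 1 and 136.46 in library 2, and Gabarapl2 the lowest at 4.66 and 5.24 TPM. Casp4, which encodes the mouse caspase-11 that senses cytosolic lipopolysaccharide, had 146.60 and 125.15 TPM, and Irgm1, an immunity-related GTPase, had 116.01 and 104.10 TPM. A list of 5 genes covered protein prenylation, the modification of Gbp2 and Gbp5, and steps that follow it. All 5 were detected (background 49.9%) and none reached the top 10% (background 4.99%). Their median was 4.09 TPM, and Pggt1b, a subunit of a prenyltransferase, was the highest at 16.59 and 13.21 TPM. Fntb, another prenyltransferase subunit, was the lowest at 1.06 and 0.53 TPM. By RSEM TPM, the 18 partner genes had a median centred log2 ratio of library 1 over library 2 of -0.12, with 7 above 0. For the 5 genes of the prenylation list the median was 0.03, with 4 above 0. Of all detected protein-coding genes, 50% were above 0, and no kallisto ratio was computed for either list.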

How the data were processed

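Each library had an RSEM gene table, an RSEM transcript table and a kallisto transcript table. Expected counts, estimated and not always whole, and TPM were used as the authors deposited them. The percent of a gene's TPM in each transcript, deposited by the authors, was recomputed here and differed by at most 0.0171 percentage points for the members. The bounds of the TPM credibility interval are a score deposited by the authors with no stated level. The mm10 assembly and GENCODE M21 are named per the labels and the notes beside the files; for the aligner, program versions and strand setting: not given in the sources used here.

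Detection required 10 expected counts or more in each library. Numeric, spike-in and phiX features (26345) were left out of library sizes; they took 0.653% of counts in library 1 and 0.222% in library 2. A count of 0 allows up to 3 counts, which is 0.152 and 0.174 CPM in libraries 1 and 2. Ratios are log2((TPM + 1) in library 1 / (TPM + 1) in library 2), minus its median over the detected protein-coding genes (0.27 by RSEM and -0.59 by kallisto before centring); adding 1 understates changes of low genes. With 1 group, no p-value was computed. edgeR 4.0.16 and DESeq2 1.42.0 in R 4.3.3 supplied scaling factors on expected counts rounded to whole numbers. Words, identities (pairwise alignment, Biopython 1.88) and motifs came from the M21 transcripts and the RefSeq promoter table. All 9 members, the related Gbp genes and 3 gene lists were named by rule, and of each list the highest, the lowest and genes of direct bearing. Members, lists and tests were chosen with earlier results of these data known.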

Additional observations from a re-analysis of the deposited data

How the results depend on the processing

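The difference between the clusters was not stable. On the log2 scale the chromosome 3 minus chromosome 5 difference was 0.36; it was 0.60 by kallisto, 0.75 with the mean over members in place of the median, and 0.28 to 0.32 when a replicate was left out. It turned to -0.18 by CPM. Without Gbp10 it was 0.26, and with Gbp2b and Gbp11 it turned to -0.092; these settings, like CPM for the 2-fold count and all alternatives for isoforms, were chosen after seeing the data. The chromosome 3 share of family TPM was 53.8%, against 55.9% by kallisto, 54.5% without Gbp10 and 52.8% with Gbp2b and Gbp11, each outside the spread between the libraries. The members' median ratio of 0.17 turned to -0.22 by kallisto and was 0.04 to 0.45 under the other alternatives. The cause of these moves was not tested. The 9 detected members, the 1 member over 2-fold apart and the 4 members with most TPM outside coding transcripts had the same counts under every alternative run, except 5 for the last in library 2 alone; with a minimum of 50 counts 7 members stood in the top 10% in place of 8. No paired analysis was possible because there was 1 group. At this depth the least counted member, Gbp10, had 215 counts in library 1 and shared 89.8% of its 31-base words with other genes.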
